A study of Mus musculus with 8 samples.

Results

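Genes for potassium channels were examined in the retina of adult mice that lack 4 molecules of the neural extracellular matrix. Every row of the deposited gene table whose symbol starts with Kcn was taken, apart from 3 rows (Kcnj10 and the noncoding Kcnd3os and Kcnq1ot1), which gave 75 of 18058 genes. They were sorted by symbol into 34 voltage-gated subunits, 7 calcium-activated subunits and relatives, 11 inward rectifiers, 10 two-pore channels, 11 auxiliary subunits and 2 others. The calcium-activated class includes the related genes Kcnt1, Kcnt2 and Kcnu1. The 2 others are Kcnrg and the noncoding opposite-strand transcript Kcnmb4os2. Total RNA of 4 WT retina samples from adult 129S2/SvPasCrl mice, an inbred strain, was compared with that of 4 retina samples from adult quadruple KO mice, in which the genes of 2 lecticans, Bcan (brevican) and Ncan (neurocan), and of 2 tenascins, Tnc and Tnr, were all inactivated. The quadruple KO line was bred by crossing single KO lines, and the deletions are constitutive, so they are present in every cell of the animal. The samples of each genotype are called A to D, and neither the sex of the animals in a library nor a batch was given in the labels.

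Potassium channels let potassium leave or enter the cell and so set the resting potential, end action potentials and shape the response of neurons to light. Voltage-gated channels open on depolarization, small-conductance (SK) and large-conductance (BK) channels open when intracellular calcium rises, inward rectifiers and two-pore channels hold the membrane near rest, and auxiliary subunits change the gating and the transport of the pores. In photoreceptors, the electrically silent subunit Kv8.2 (encoded by Kcnv2) joins the pore of a slow current that counteracts the hyperpolarization by light, and loss of Kv8.2 causes a human cone dystrophy. Ganglion and amacrine cells use Kv1, Kv3 and Kv7 channels together with SK and BK channels to set their firing.

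After adjustment over all genes, 1 of the 74 tested potassium channel genes (1.35%, beside 0.437% of all genes) differed between WT and KO. It was Kcnn2, which encodes the calcium-activated channel SK2. Kcnn2 was called in only 1 of the 8 fits with 1 library left out. Its mean level in the KO was 68.3% of that in the WT. Kcnv2 was 1.40 times as high in the KO and Kcnab2, the most abundant auxiliary gene, stood at 85.6% of the WT level, and both were outside the range of the other genotype in every library without passing the adjusted test. The two-pore channel genes had their median furthest below 0, and most of that difference lay in 2 of the 4 WT libraries.

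The values are counts that the authors had normalized between libraries, and the depth, estimated in units of 1e6 reads, was 23.9 to 40.5 in the WT and 38.9 to 52.5 in the KO. Rod, cone, bipolar, amacrine, ganglion and Mueller cell markers were all present, and no marker of these lists was at 0 in any library. Ncan, Bcan and Tnr were at 0.0566%, 5.82% and 42.9% of their WT means in the KO, and Tnc was at 92.9%, so that the table does not show the loss of Tnc at the level of total RNA. WT B and WT C stood apart from the other 6 libraries. Mitochondrially encoded mRNAs took 0.402% and 0.341% of their counts against 1.28% to 1.64% elsewhere, and the signal recognition particle RNA took 19.3% and 14.8% against 6.82% to 8.69%. Both libraries lay above all other 6 in 28.2% of the tested genes and below all other 6 in 27.6%. Among the potassium channel genes the counts were 18 of 74 (24.3%) above and 16 of 74 (21.6%) below. Each comparison was therefore computed also without these 2 libraries.

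A linear model on log2(normalized count + 1) (limma, moderated by a trend on the mean, adjusted by the Benjamini-Hochberg method over 17636 genes with a mean of at least 10) called 77 genes (0.437%) at an adjusted p under 0.05, and 1 of the 74 potassium channel genes (1.35%). Kcnk6, with a mean of 8.66, was not tested. At an unadjusted p under 0.05 stood 13 of the 74 (17.6%), beside 16.6% of all genes. Of these 13, 8 had lower means in the KO (among them Kcnab2, Kcng2, Kcnh1, Kcnk15, Kcnk9, Kcnn2 and Kcnq3) and 5 had higher means (Kcna5, Kcne2, Kcnj2, Kcnq5 and Kcnv2). All 4 KO libraries lay below all 4 WT libraries for 4 genes (5.41%, beside 3.58% of all genes), among them Kcnab2, Kcnk15 and Kcnn2. All 4 KO libraries lay above for 3 genes (4.05%, beside 6.16% of all genes), namely Kcna5, Kcnj2 and Kcnv2. Without WT B and WT C, Kcnn2 was again the 1 gene of the group that was called, while 0.527% of all genes were. The shares of genes at an unadjusted p under 0.05 were near those of the whole table. Kcnn2, Kcnk15 and Kcnv2 had been listed by the study on these same samples, at an adjusted p under 0.05 in its DESeq2 fit. They are therefore not independent evidence of their direction.

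The fold changes of the group were small. The median log2 fold change, KO over WT, was -0.05 over the 74 genes and 0.00 over all genes, with 42 genes below 0 and 32 above. For 49 genes (66.2%) the absolute log2 fold change was under 0.25, beside 61.1% of all genes. For 36 genes the whole 95% interval of the difference lay within 0.5 log2 units of 0, which bounds a change in either direction at that size. The other intervals, that of Kcnn2 included, reached beyond it. When WT B and WT C were left out, the absolute difference became smaller for 53 genes (71.6%, beside 68.7% of all genes) and its sign changed for 19 (25.7%, beside 34.5%).

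Levels were compared between genes as normalized counts per kb of exon, since a long transcript collects more reads. On this scale the genes spanned 2.04 (Kcnk6) to 7544 (Kcnj14). Kcnj14, which encodes the inward rectifier Kir2.4, made up 26.0% of the summed level of the group. Kcnv2 at 4287 added 14.8%. Kcnab2 was at 1123, Kcna5 at 910 and Kcne2 at 670. Voltage-gated subunits held 51.6% of the summed level per kb in the WT and 57.2% in the KO, inward rectifiers 30.6% and 26.5%, auxiliary subunits 12.0% and 11.4%, two-pore channels 3.21% and 2.11%, and calcium-activated channels 2.47% and 2.68%. In WT A and WT D alone these shares were 55.4%, 27.5%, 12.1%, 2.09% and 2.82%, so that the two-pore share was then close to that of the KO. The sum over all 75 genes was 28410 ± 1041 per kb in the WT and 29686 ± 815 in the KO (SD, n = 4). The sums were 29036, 26860, 28747 and 28998 in WT A to D and 29400, 29183, 30900 and 29260 in KO A to D. The lowest KO library thus lay just above the highest WT library. Kcnv2, which is part of the voltage-gated share, alone went from 3578 per kb in the WT to 4997 in the KO. That is a larger rise than that of the whole sum, so the sum does not show a rise of the group apart from Kcnv2.

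**Figure D1:**
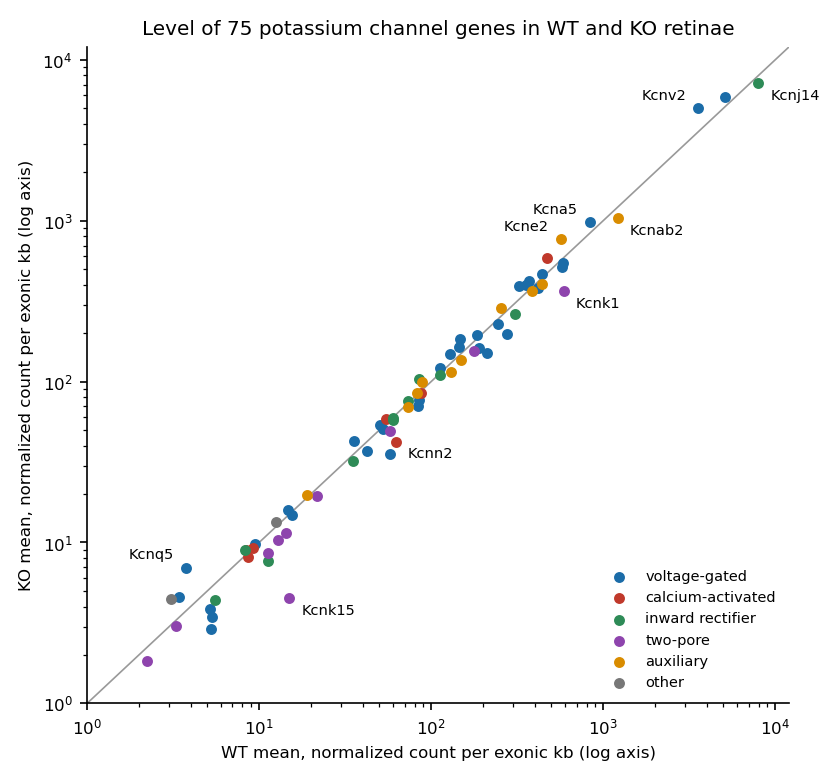
Mean normalized count per kb of exon of the 75 potassium channel genes in the 4 WT (horizontal log axis) and the 4 KO libraries (vertical log axis), with the line of equal levels and 1 point per gene, coloured by class. Kcnj14 and Kcnv2 are among the points at the top, and Kcnk15 (below) and Kcnq5 (above) lie far from the line at low levels.

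Kcnn2 belongs to the SK family, whose channels are opened by calcium bound to calmodulin and contribute to the afterhyperpolarization that spaces action potentials. The gene lies on chromosome 18, and its normalized counts in WT A to D were 765, 733, 671 and 637. In KO A to D they were 504, 489, 451 and 472. The highest KO library was therefore below the lowest WT library, and the libraries WT B and WT C lay inside the range of the other WT libraries. The means were 701 ± 58.1 in the WT and 479 ± 22.8 in the KO (SD, n = 4). The log2 fold change was -0.55 with a standard error of 0.09 and a limma adjusted p of 0.033. Without WT B and WT C it was -0.54 with a limma adjusted p of 0.047. The direction did not depend on any library, but the call did: leaving out any library but WT D put the adjusted p between 0.066 and 0.18, so that Kcnn2 was called in 1 of the 8 fits with 1 library left out. None of the 12 tested genes within 1 Mb of Kcnn2 was called by limma, beside 0.437% of all genes. Of these 12, 3 had an unadjusted p under 0.05, beside 16.6% of all genes, and their log2 fold changes ranged over all 12 from -1.12 to 0.70.

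The other SK genes did not pass the test. Kcnn1, which encodes SK1, had 256, 300, 374 and 299 normalized counts in WT A to D and 287, 311, 350 and 374 in KO A to D. Kcnn3, which encodes SK3, had 105, 84.5, 65.9 and 105 in the WT and 75.4, 92.4, 85.0 and 88.9 in the KO. For both genes the genotypes overlapped, with log2 fold changes of 0.11 (95% interval -0.20 to 0.42) and -0.06 (-0.45 to 0.34). Both moved away from 0 without WT B and WT C, to 0.25 for Kcnn1 and -0.30 for Kcnn3 (limma adjusted p = 0.48 and 0.45), and all 4 KO values of Kcnn3 lay below WT A and WT D. Per kb of exon, Kcnn1 (56.3) and Kcnn2 (52.3) were at similar levels and Kcnn3 was at 8.39. Kcnn4 was not analysed here.

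To compare SK2 with its relatives inside each library, ratios of normalized counts were formed. Kcnn2 had been listed by the study on these same samples, and its own counts did not overlap between the genotypes. The p-values of its ratios are therefore no independent evidence. The ratio of Kcnn2 to Kcnn1 was 2.98, 2.44, 1.79 and 2.13 in the WT and 1.76, 1.57, 1.29 and 1.26 in the KO. The lowest WT ratio and the highest KO ratio were close, yet the genotypes did not overlap, with a difference of -0.66 on the log2 scale (two-sided exact permutation p = 0.0286, the smallest that 4 against 4 libraries allow; 0.0571 after adjustment over the 4 ratios tested). For Kcnn2 to Kcnn3 the ratio was 7.30, 8.67, 10.2 and 6.04 in the WT and 6.68, 5.29, 5.30 and 5.31 in the KO, and WT D fell within the KO range. That difference was -0.49 (exact permutation p = 0.0571, adjusted 0.0762). Without WT B and WT C it was -0.24, and that of Kcnn2 to Kcnn1 was -0.79, where 4 against 2 libraries allow no p below 0.133 in an exact permutation test. Kcnn1 lies 0.721 Mb from the targeted gene Ncan on chromosome 8 and Kcnn3 lies 1.52 Mb from the targeted gene Bcan on chromosome 3, the only 2 of the 75 genes within 10 Mb of a targeted gene, and the strain of this flanking DNA in the KO line, and its part in these ratios, was not tested.

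**Figure D2:**
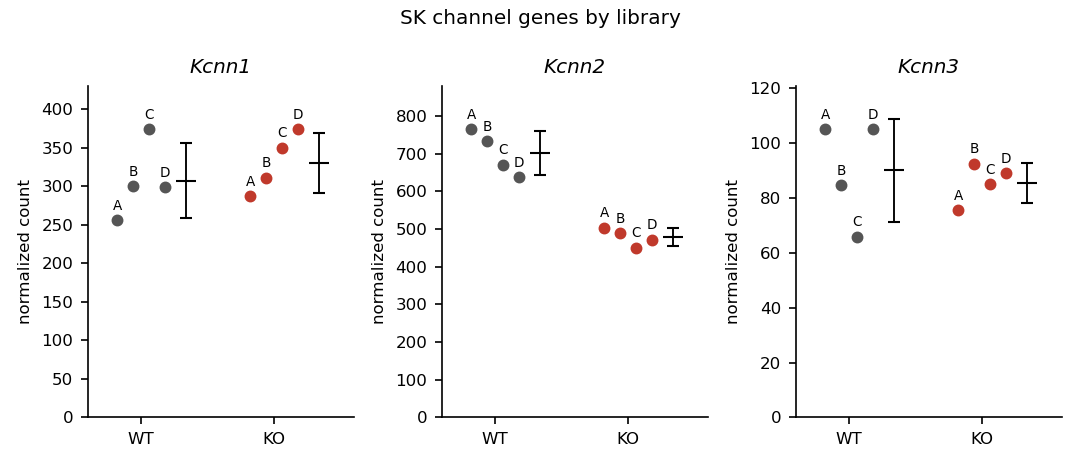
Normalized counts of the SK channel genes Kcnn1, Kcnn2 and Kcnn3 in each library (points, lettered A to D; grey WT, red KO), with mean and SD (n = 4) beside them. The 4 KO values of Kcnn2 (451 to 504) lie below the 4 WT values (637 to 765), while the genotypes overlap for Kcnn1 and, through WT B and WT C, for Kcnn3.

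The remaining genes of the calcium-activated class overlapped between the genotypes. Kcnma1, which encodes the pore of the BK channel, was the strongest of the class at 528 per kb. Its normalized counts were 9502, 6607, 5826 and 10230 in the WT and 9915, 10075, 9799 and 9774 in the KO. WT B and WT C were the 2 low libraries, the other 6 lay between 9502 and 10230, and the log2 fold change of 0.34 became 0.00 without them. Kcnt1, which encodes a sodium-activated channel, had 870 to 1098 in the WT and 823 to 1069 in the KO, with a log2 fold change of -0.05, and -0.18 without WT B and WT C. The median over the 7 genes was 0.08, but -0.09 without WT C, -0.03 without KO C and -0.18 without WT B and WT C.

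Among the voltage-gated genes, Kcnv2 of the photoreceptors was one of the most abundant. It lies on the plus strand of chromosome 19 (GRCm39 19:27299988-27314579) and had 20987, 14700, 16453 and 20959 normalized counts in WT A to D and 23477, 24127, 28373 and 26126 in KO A to D. Every KO library was above every WT library, and WT B and WT C were the lowest of the 8. The means were 18275 ± 3197 and 25526 ± 2207 (SD, n = 4). The log2 fold change was 0.50 with a standard error of 0.13 (limma adjusted p = 0.30). Genes without overlap of the genotypes were named for that reason, and the separation fixes the exact permutation p at its smallest value of 0.0286. That p is therefore no further test. Against WT A and WT D alone the log2 fold change was 0.28 (limma adjusted p = 0.25).

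Rod markers moved with these counts. The summed normalized count of 7 rod markers was 1515511, 1199179, 1406787 and 1619975 in WT A to D and 1625529 to 1756592 in the KO, so that every KO library was above every WT library, and 3 of the 7 markers (Cnga1, Nr2e3 and Sag) were higher in every KO library, as were 6.16% of all genes. Nrl and Pde6b had log2 fold changes of -0.14 and -0.08 and were highest in WT B and WT C. The 5 cone markers summed to 21972 to 24949 in the WT and 23127 to 24745 in the KO. In whole retinae, fewer cells of a type and less RNA per cell cannot be told apart, and the part of the rod markers in the Kcnv2 difference was not tested.

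Kcnq3 encodes the Kv7.3 subunit of the M current, which limits repetitive firing. It had 749, 1165, 1026 and 468 in the WT and 559, 511, 456 and 551 in the KO, and WT D fell inside the KO range. Its log2 fold change of -0.64 was -0.19 without WT B and WT C (limma adjusted p = 0.30 and 0.68).

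Kcnq5, which encodes Kv7.5, went the other way at a low level of 5.37 per kb. Its normalized counts were 26.8, 27.3, 19.3 and 42.4 in the WT and 68.2, 48.8, 37.2 and 60.5 in the KO, and WT D lay above KO C. The log2 fold change was 0.89 with a standard error of 0.28 (limma adjusted p = 0.30), and 0.62 without WT B and WT C. The sum of 7 ganglion cell markers was 28310 to 31420 in the WT and 23676 to 28293 in the KO, and more than any other marker Nefl made up this sum. Nefl, Rbpms and Sncg were lower in every KO library, as were 3.58% of all genes, and Slc17a6 had a log2 fold change of -0.34. Nefm, Thy1 and Pou4f1 were at -0.01, 0.05 and 0.29. Over the 7 markers the median was -0.23, and -0.20 without WT B and WT C, with 5 below 0 and 2 above. At an unadjusted limma p under 0.05 stood 4 of the 7 (57.1%, beside 16.6% of all genes). The part of these markers in the Kcnn2 difference was not tested.

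Kv1 genes, which encode the channels of axons and nerve endings, had 5 of 6 log2 fold changes above 0. Kcna5, which encodes Kv1.5, was the most abundant of them and had 2561, 2238, 2314 and 2499 normalized counts in the WT and 2570, 2909, 3006 and 2741 in the KO. The lowest KO library was 2570 and the highest WT library 2561, so the genotypes just failed to overlap, with a log2 fold change of 0.22 and a standard error of 0.08 (limma adjusted p = 0.30), and 0.15 without WT B and WT C. Kcna2 was at 0.30 and Kcna4 at 0.25, and the values were 0.00 and -0.01 without WT B and WT C. The median over the 6 genes was 0.20 with all libraries and 0.01 without those 2.

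Kv3 genes (Kcnc1 to Kcnc4), which support fast firing, had log2 fold changes of -0.22 to 0.17, and Kv4 genes (Kcnd1 to Kcnd3), which carry A-type currents, -0.19 to 0.18. The 6 genes of the ether-a-go-go group (Kcnh) were between -0.25 for Kcnh1 and 0.33 for Kcnh6. The electrically silent subunits other than Kcnv2 (Kcnf1, Kcng1 to Kcng4 and Kcns1 to Kcns3) modify Kv2 channels and spread further, from -0.85 to 0.40. Kcng2 had 36.9, 82.8, 54.3 and 55.6 normalized counts in the WT and 21.8, 35.0, 48.2 and 22.1 in the KO, and overlapped through WT A and KO C. Kcns3 had 33.2, 24.8, 25.2 and 21.1 in the WT and 27.3, 33.6, 39.7 and 37.7 in the KO, and overlapped through WT A and KO A. Kcng2 was at 4.07 per kb and Kcns3 at 4.00, where counting error is large, since 3 reads corresponded to 2.13 to 5.30 normalized counts. Over all 34 voltage-gated genes the median was 0.07 with all libraries and 0.00 without WT B and WT C. Their summed level per kb was 14690 ± 1615 in the WT and 16978 ± 540 in the KO (SD, n = 4), with 13173 and 13431 in WT B and WT C. Kcnv2 made up 3578 of the WT sum and 4997 of the KO sum, so the sum follows the most abundant genes more than the class.

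The median log2 fold change of the inward rectifiers was close to 0, and single genes ranged from -0.41 (Kcnj13) to 0.29 (Kcnj2). Kcnj14 had 19380, 20684, 26160 and 20018 normalized counts in the WT and 20061, 18067, 20640 and 19080 in the KO. WT C stood above the other 7 libraries, among which the genotypes overlapped, and the log2 fold change was -0.14 (-0.02 without WT B and WT C). Kcnj2, which encodes the classical strong rectifier Kir2.1, had 535, 436, 384 and 509 in the WT and 555, 597, 557 and 555 in the KO. The KO libraries were above all WT libraries, WT B and WT C were the lowest, and the log2 fold change was 0.29 with a standard error of 0.11, or 0.12 without them (limma adjusted p = 0.30 and 0.55). Kcnj9, which encodes the G protein-gated subunit GIRK3, had 2828, 3402, 3397 and 2447 in the WT and 2451 to 2840 in the KO, with -0.21 and -0.03 without WT B and WT C. Kcnj13, the Kir7.1 gene of the pigment epithelium, was low and ranged from 24.6 to 94.5 in the WT and 36.6 to 62.9 in the KO, and the 4 pigment epithelium markers tested summed to 1952 to 6128 in the WT and 2237 to 3424 in the KO. The median of the 11 genes was -0.05, and 8 of them were below 0.

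Two-pore channels produce the leak current of resting cells. All 9 tested genes had log2 fold changes below 0, from -1.45 to -0.13 with a median of -0.28, beside 0.00 over all genes. The split lay in WT B and WT C: both were above all other libraries for 5 of the 9 genes (Kcnk1, Kcnk3, Kcnk10, Kcnk12 and Kcnk15), and the median without them was -0.05. The summed level per kb was 628, 1257, 1148 and 582 in WT A to D and 641, 642, 622 and 604 in KO A to D, so that WT B and WT C stood far above all other libraries, WT A lay inside the KO range and WT D below it. The sum of 5 Mueller glia markers was also highest in these libraries, at 194007 in WT B and 187523 in WT C against 133854 to 150328 in the other 6, mostly through Glul at 135955 and 132019. Of the 5 markers, 3 were highest in these libraries, Dkk3 was not, and Slc1a3 was lowest there (5673 and 5128 against 6702 to 7156). The part of these cells in the two-pore values was not tested.

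Kcnk1, which encodes TWIK-1, was the most abundant two-pore gene. It had 883, 2256, 1978 and 838 normalized counts in the WT and 979, 952, 880 and 884 in the KO, and its log2 fold change of -0.55 became 0.10 without WT B and WT C. Kcnk3, which encodes the acid-sensitive TASK-1, had 1343, 2046, 1950 and 1250 in the WT and 1396 to 1458 in the KO, and turned from -0.18 to 0.14. Kcnk9, which encodes TASK-3, had 870, 757, 703 and 799 in the WT and 656, 698, 707 and 625 in the KO, where WT C and KO C overlapped, and WT B and WT C did not stand out. Its log2 fold change was -0.22, and -0.31 without those 2 libraries (limma adjusted p = 0.30 and 0.20).

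Kcnk15, the gene of TASK-5, for which no current of its own is known, had the largest absolute difference of the group at a low level. Its normalized counts were 21.6, 38.6, 72.6 and 17.4 in the WT and 9.45, 11.5, 13.7 and 10.2 in the KO. The genotypes did not overlap, WT C had the highest count and WT D the lowest of the WT, and the log2 fold change was -1.45 with a standard error of 0.42 (limma adjusted p = 0.30). It was -0.75 without WT B and WT C (limma adjusted p = 0.36). Kcnk15 overlaps Rims4 on the opposite strand, for which the counts were 891 to 1130 in the WT and 916 to 1130 in the KO, and whether the counting used the strand is not given in the sources used here.

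**Figure D3:**
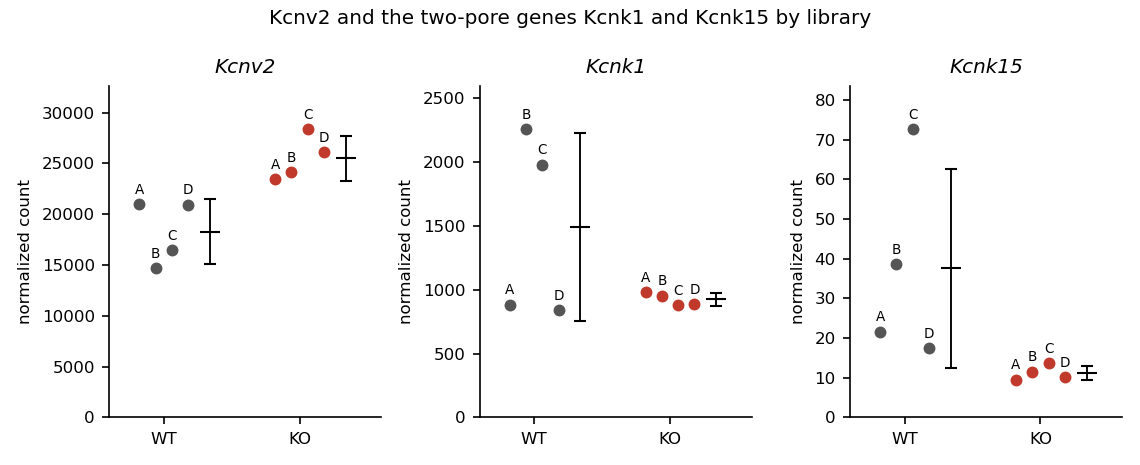
Normalized counts of Kcnv2, Kcnk1 and Kcnk15 in each library (points, lettered A to D; grey WT, red KO), with mean and SD (n = 4). WT B and WT C are the 2 lowest libraries for Kcnv2 and the 2 highest for Kcnk1 and Kcnk15, and the genotypes overlap for Kcnk1 (838 to 2256 in the WT, 880 to 979 in the KO).

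**Figure D4:**
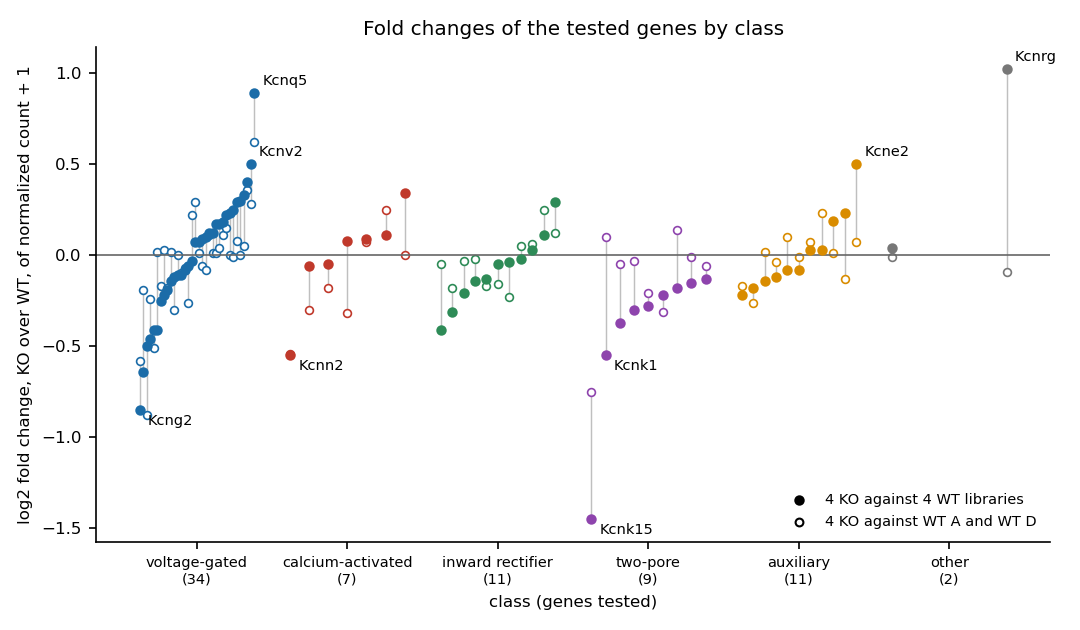
Log2 fold change, KO over WT, of each tested potassium channel gene by class (number of genes in brackets), with all libraries (filled) and against the libraries WT A and WT D alone (open), joined by a line. The 9 two-pore genes lie below 0 with all libraries and, apart from Kcnk15 at -0.75, between -0.31 and 0.14 without WT B and WT C, while Kcnn2 stays at -0.55 and -0.54.

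The auxiliary subunits bind to the pores. Kcnab2, which encodes the cytoplasmic subunit Kvβ2 of Kv1 channels, had 10975, 12199, 12598 and 11978 normalized counts in the WT and 10241, 9968, 10819 and 9837 in the KO. All KO libraries were below all WT libraries, and the difference was small, at 85.6% of the WT mean and a log2 fold change of -0.22 with a standard error of 0.07 (limma adjusted p = 0.30, and -0.17 without WT B and WT C). The genes Chd5 and Nphp4 overlap it on the opposite strand, with log2 fold changes of -0.06 and -0.61. Kcnab1 and Kcnab3, the other subunits of this type, were at -0.14 and -0.12.

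Kcne2, a single-pass partner of several Kv pores, had 1220, 801, 691 and 1480 normalized counts in the WT and 1459, 1439, 1389 and 1361 in the KO. WT B and WT C were the 2 low libraries, WT D was the highest of all 8, and the log2 fold change of 0.50 was 0.07 without those 2. The KChIP genes (Kcnip1 to Kcnip4), whose products bind Kv4 channels, were between -0.18 and 0.23, and the BK subunit genes Kcnmb2 and Kcnmb4 were at 0.03 and -0.08. The median over the 11 auxiliary genes was -0.08, 0.01 without WT B and WT C and 0.02 without WT B alone. Kcnrg, whose product limits the assembly of Kv channels, had 17.4, 0, 7.50 and 9.07 normalized counts in the WT and 18.3, 8.00, 12.8 and 10.1 in the KO. These values are close to the floor of 3 reads, the genotypes overlapped, and the log2 fold change of 1.02, which rests on the 0 in WT B, was 0.14 without WT B and -0.09 without WT B and WT C.

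**Figure D5:**
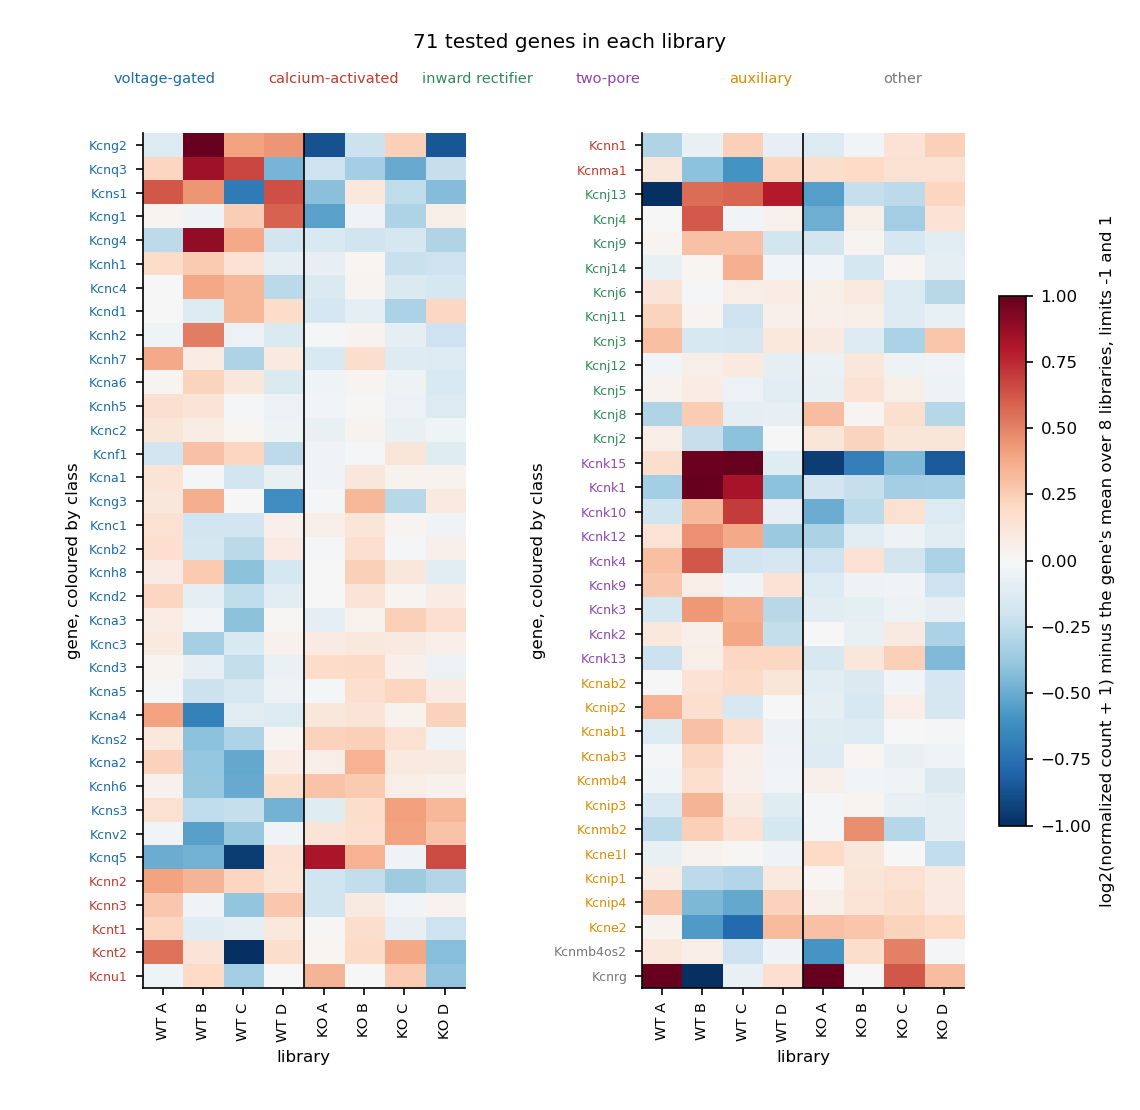
Log2(normalized count + 1) of each of 71 tested genes minus its own mean over the 8 libraries, with the colour scale limited to -1 and 1, libraries in columns (WT left of the line, KO right) and genes in rows, coloured by class and ordered by log2 fold change within the class. WT B and WT C differ from the other 6 libraries in many rows, and the rows of Kcnn2 and Kcnv2 divide at the line.

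Genes that work with these channels were counted in the same fit. Of a list of 26 (anchors and scaffolds, Hcn channels, calmodulins, the sulfonylurea receptors and other accessory proteins), 24 were tested, none was called by limma (0.437% of all genes were) and 3 had an unadjusted p under 0.05 (12.5%, beside 16.6% of all genes). The median log2 fold change was -0.03, with 14 below 0 and 10 above. Calm2 and Calm3, which encode the calmodulin that opens SK channels, had log2 fold changes of -0.04 and -0.44, and -0.06 and -0.03 without WT B and WT C. The 3 genes under the unadjusted threshold were Cntnap2 at 0.41, Lgi1 at -0.36 and Vapa at -0.51, which encode an axonal scaffold of Kv1 channels, a secreted regulator of Kv1 channels and an endoplasmic reticulum partner of Kv2 channels. Lgi1 had 367, 441, 454 and 400 normalized counts in the WT and 297, 377, 300 and 324 in the KO, and overlapped through WT A and KO B. Without WT B and WT C, Cntnap2 was at 0.11, Lgi1 at -0.25 and Vapa at -0.10.

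The spread also differed between the genotypes. The SD of the normalized counts was larger in the WT than in the KO for 61 of the 74 genes (82.4%), beside 84.0% of all genes tested. Leaving out WT B and WT C lowered the median absolute log2 fold change of the group from 0.176 to 0.103, beside 0.192 to 0.0967 over all genes.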

How the data were processed

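Total RNA (450 ng per sample, directional total RNA library kit) from retinae of 4 adult WT and 4 quadruple KO samples was sequenced. The authors trimmed reads with Trim Galore 0.6.7, aligned them with STAR 2.7.9a to GRCm39, estimated gene counts with Salmon 1.5.2 and normalized them with DESeq2 1.32.0. The deposited values are these normalized counts per library. Their table also holds fold changes and p-values of the authors' own fit, which were not used.

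A pseudocount of 1 was added before log2 was taken. Every gene averaging 10 or more across the 8 libraries entered limma 3.58.1 in R 4.3.3 (lmFit, eBayes with trend, no covariate), with Benjamini-Hochberg adjustment over all 17636 genes and a threshold of 0.05. Two-sided exact permutation tests were used for single genes and for 4 ratios, with 0.0286 as the smallest p possible. Nothing in the labels says whether the samples are separate animals. The study's methods describe pooling of retinae before RNA extraction, without the number of animals per sample. The p-values therefore set the difference between the genotypes against the spread between these samples, which need not be that between animals. Gene positions and exonic lengths came from GENCODE M39 (GRCm39), and the annotation the authors counted with is not given in the sources used here. The value of 1 read was estimated from the spacing of low normalized counts. Only 45.8% to 67.9% of the low values lay within 0.1 reads of a whole step, which is too few to recover whole reads for a count model. The intervals of the log2 fold changes come from the limma fit and include the spread between libraries. The floor of 3 reads comes from the estimated depth and covers counting error only.

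The members, the lists and the tests were chosen with earlier results of these data known. Named are the SK genes, called genes, genes whose genotypes do not overlap, the 5 largest falls and rises of log2 fold change, the 2 most abundant genes per class, genes listed by the study, and ratio partners. Some of these genes and 2 of the ratios are not reported here, but are included in the counts, the medians and the adjustment. Other genes were named after their values were seen. On simulated data for the KO against WT comparison, with 17636 genes, limma recovered 41 of 50 genes lowered to 0.25, 31 of 50 lowered to 0.5, 33 of 50 raised 2-fold and 48 of 50 raised 4-fold, with 11 false calls. Each gene was drawn independently, with the same dispersion in both genotypes and no shift shared by libraries such as WT B and WT C. No change as small as that of Kcnn2 was simulated. These rates therefore do not give the power of the real comparison. Alternatives were median-ratio or quantile scaling, pseudocounts of 0.1 and 10, a minimum mean of 100 or none, eBayes with a robust prior or without trend, weights per library, a replicate block by letter, the mitochondrial share as a covariate, WT B and WT C left out, each library left out, and thresholds of 0.1 and 0.01. Figures were drawn with matplotlib 3.10.9 in Python 3.11.15.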

Additional observations from a re-analysis of the deposited data

Results flagged for a closer look

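Among the 40 sets of 4 libraries examined (20 named genes in each genotype), 1 value stood far from the others of its group. Kcnj2 had a normalized count of 597 in KO B and 555 to 557 in the other KO libraries, a gap of 0.954 of the group's range, above Dixon's 95% critical value for 4 samples. Chance alone sets apart about 1 in 20 such groups.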

How the results depend on the processing

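The log2 fold change of Kcnn2 stayed between -0.60 and -0.50 in all 20 alternatives that gave it, with limma adjusted p from 0.0022 to 0.18, and it was called in 10 of them. It was not called with quantile normalization (-0.52, adjusted p = 0.055), with eBayes without trend (-0.55, 0.053) or with the letter as a replicate block (-0.55, 0.18), and the number of potassium channel genes called was then 0, with 10, 13 and 11 at an unadjusted p under 0.05. It was also 0 at an adjusted p under 0.01. With 1 library left out, the number called was 0 to 1 (8 to 24 at an unadjusted p under 0.05) and the log2 fold change of Kcnn2 was -0.59 to -0.50. Same-lettered libraries had correlations of their deviations from the group means of -0.01, -0.11, 0.10 and 0.05. WT A correlated more with KO B (0.11) than with KO A. These values show no pairing by letter, but with 4 libraries per genotype they cannot exclude one. The block lowered the calls over all genes from 77 to 51. Array weights raised them to 143.

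Medians of classes depended on WT B and WT C. The calcium-activated median was -0.18 with array weights, -0.15 with the mitochondrial share as a covariate and -0.18 without WT B and WT C. The two-pore median was -0.05 without these libraries. For the auxiliary genes it was 0.02 with array weights and 0.01 without WT B and WT C, and for the voltage-gated genes -0.04 with array weights. With 1 library left out, the medians were 0.02 to 0.12 (voltage-gated), -0.09 to 0.10 (calcium-activated), -0.10 to -0.01 (inward rectifiers), -0.38 to -0.20 (two-pore) and -0.10 to 0.02 (auxiliary). Signs changed for Kcnk1 (0.10), Kcnk3 (0.14) and Kcnrg (-0.09) without WT B and WT C, for Kcnk3 (0.06) and Kcnrg (-0.13) with array weights, and for Kcnk3 (0.09) with the mitochondrial covariate. With 1 library left out, Kcnn3 ranged from -0.20 to 0.03 (0.02 without WT A, 0.00 without KO A) and Kcnt1 from -0.11 to 0.01. Without WT B and WT C these were -0.30 and -0.18, and with array weights -0.26 and -0.18. The cause was not tested. Partner genes had no call in any alternative with limma. No count model was run, since whole counts were not recovered, and sex, batch and the strain of DNA near the targeted genes could not be examined.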
